A study of Homo sapiens with 6 samples.

Results

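Exons longer than 60 and shorter than 500 nt with a short intron before them, of at most 1000 nt, and a long intron after them, of at least 5000 nt, were examined in MDA-LM2 cells after knockdown of a spliceosomal protein. MDA-LM2 is a human breast cancer line, selected from MDA-MB-231 for its spread to the lung. They were chosen by these lengths alone, with 1 event kept per exon, and numbered 1678 among 40658 annotated skipped exons. They lie in 1360 named genes. RNA was taken 48 h after transfection with siRNAs against SNRPA1 (siSNRPA1, 3 libraries), against SNRPB (siSNRPB, 1 library) or with a control siRNA (siCtrl, 2 libraries). All cells were of the same line and all were transfected. The design text speaks of 3 siRNAs against SNRPA1 and of a pair against SNRPB, and the labels do not tie an siRNA to a library. Each group has 1 deposited set of values, called a pool here, so there is no replicate and no standard deviation for any value, and each p-value compares the reads of 2 pools and not the conditions.

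SNRPA1 encodes U2 A', which belongs to the U2 small nuclear ribonucleoprotein. This particle, a snRNP, binds the branch point near the end of an intron. SNRPB encodes the Sm proteins B and B', part of the ring that the major spliceosomal snRNPs share. As background, splice sites can be paired across a short intron (intron definition) or, where introns are long, across the exon between them (exon definition). An exon with a short intron on 1 side and a long intron on the other offers its first splice site to a near partner and its last splice site to a far one.

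The inclusion level is the authors' estimate of the fraction of transcripts that hold the exon, from 0 to 1. A read is informative where it fits 1 of the isoforms, with or without the exon, and not the other. The exons had 164239 informative reads in the siSNRPA1 pool, 70586 in siSNRPB and 117872 in siCtrl, with medians of 19, 11 and 15 per listed exon. Reads that fit neither isoform, such as those inside an intron, made up a median of 84.1%, 74.2% and 85.5% of all reads of the exon's event. Reads that fit an isoform of SNRPA1's own events numbered 21.9 per 1000000 isoform reads in siSNRPA1, 272 in siSNRPB and 118 in siCtrl, and those of SNRPB 337, 30.6 and 247. Neither gene holds an exon of the kind examined. An exon was tested in a pair of pools where each held at least 20 informative reads and the pair together at least 5 reads for inclusion and 5 for exclusion. It is said to have fallen or risen where Fisher's exact test (two-sided) of those reads, adjusted over every tested exon of the table (Benjamini-Hochberg), gave an adjusted p (here called the exact adjusted p) under 0.05 and the inclusion level differed by at least 0.1 in the same direction as the reads.

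The sequences below belong to exons with large changes that lie in coding sequence or in a noncoding transcript. They were read from GENCODE 29 transcripts on GRCh38, 5′ to 3′ on the strand of the gene, and the capitals mark the first 3 and the last 3 bases, which adjoin the 3′ splice site of the short intron and the 5′ splice site of the long intron. The first set fell in siSNRPA1: RPAP3 (chr12:47679493-47679594, minus), RBM34 (chr1:235160511-235160647, minus) and SPTLC1 (chr9:92079434-92079566, minus). TENT2 (chr5:79649062-79649190, plus) and ATP6V0A1 (chr17:42514289-42514460, plus) fell in both knockdowns. FAM193B (chr5:177531282-177531521, minus), NSUN2 (chr5:6631873-6631977, minus) and SNHG5 (chr6:85677093-85677191, minus) fell in siSNRPB. ZNF584 (chr19:58409965-58410091, plus) rose in siSNRPA1 and NIPA2 (chr15:22839062-22839174, plus) in siSNRPB.
RPAP3: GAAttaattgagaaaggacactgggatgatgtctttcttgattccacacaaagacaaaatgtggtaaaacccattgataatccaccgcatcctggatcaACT
RBM34: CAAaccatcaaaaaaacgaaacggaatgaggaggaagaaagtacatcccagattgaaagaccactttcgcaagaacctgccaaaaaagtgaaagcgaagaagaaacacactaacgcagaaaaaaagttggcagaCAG
SPTLC1: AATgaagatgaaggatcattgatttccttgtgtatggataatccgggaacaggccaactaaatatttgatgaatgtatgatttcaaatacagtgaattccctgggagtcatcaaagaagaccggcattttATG
TENT2: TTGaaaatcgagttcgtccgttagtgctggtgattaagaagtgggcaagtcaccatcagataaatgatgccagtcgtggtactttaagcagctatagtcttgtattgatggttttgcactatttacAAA
ATP6V0A1: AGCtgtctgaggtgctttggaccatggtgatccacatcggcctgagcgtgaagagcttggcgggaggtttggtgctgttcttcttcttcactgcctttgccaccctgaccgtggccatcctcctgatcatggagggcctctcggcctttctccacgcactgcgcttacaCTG
FAM193B: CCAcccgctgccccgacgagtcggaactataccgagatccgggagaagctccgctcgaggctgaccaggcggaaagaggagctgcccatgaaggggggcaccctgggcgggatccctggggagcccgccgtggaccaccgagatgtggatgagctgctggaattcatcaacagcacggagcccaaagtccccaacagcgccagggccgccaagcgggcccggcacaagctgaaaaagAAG
NSUN2: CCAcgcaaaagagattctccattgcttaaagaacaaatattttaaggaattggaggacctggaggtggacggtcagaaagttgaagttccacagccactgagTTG
SNHG5: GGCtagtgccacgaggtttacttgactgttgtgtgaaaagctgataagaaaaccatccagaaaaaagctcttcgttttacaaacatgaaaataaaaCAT
ZNF584: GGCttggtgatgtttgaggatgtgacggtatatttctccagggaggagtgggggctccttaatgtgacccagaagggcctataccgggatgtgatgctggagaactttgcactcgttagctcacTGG
NIPA2: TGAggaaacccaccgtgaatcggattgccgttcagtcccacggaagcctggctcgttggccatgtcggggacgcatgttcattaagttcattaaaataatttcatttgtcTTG
These ends differ from exon to exon. TENT2, RPAP3 and SNHG5 end in AAA, ACT and CAT, and the other 7 end in G. Over the exons that match an annotated exon, 78.7% of those with a short upstream and long downstream intron ended in G, against 79.9% of all skipped exons.

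Where the exons lie is given as a description with no test, and some of it is shared with other exons beside a long intron. Of the 1678, 31.9% were fully coding, against 48.6% of all 40658 skipped exons. Exons of the same length with the reverse arrangement, a long intron before and a short one after, were fully coding in 38.3% of cases and those with long introns on both sides in 41.3%. Of the 1678, 21.8% lay in a 5′ UTR, against 11.1% of all, 14.8% with the reverse arrangement and 16.2% with both introns long. In noncoding transcripts lay 21.8%, against 18.3% of all, 23% with the reverse arrangement and 20.5% with both introns long. Where the exon and both neighbours form consecutive exons of 1 annotated transcript, the exon was its second exon in 188 of 811 cases (23.2%), against 15.3% of all, 20.9% with the reverse arrangement and 22.9% with both introns long. Median GC content was 50.5%, between the 56.6% of exons with short introns on both sides and the 46.8% of exons with long introns on both. The upstream introns had quartiles of 281 and 708 nt, the median downstream intron 9517.5 nt and the longest 366642 nt.

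They were also skipped more often. Where a pool held 20 informative reads or more, the median level was 0.49 in siSNRPA1, 0.68 in siSNRPB and 0.65 in siCtrl, against 0.73, 0.83 and 0.83 over all exons. No exclusion read was found for 37.5%, 47% and 47.2% of them, against 46.7%, 56% and 56.1% of all exons in siSNRPA1, siSNRPB and siCtrl. Of 506 such exons with 20 informative reads in each of the 3 pools, 163 (32.2%) had no exclusion read in any.

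Most of the 1678 exons could not be tested. For siSNRPA1 against siCtrl, 131 were missing from a pool, 877 had fewer than 20 informative reads in one, 307 had fewer than 5 exclusion reads (240 of them none) and 53 fewer than 5 inclusion reads, which left 310. For siSNRPB against siCtrl 212 were left, and for siSNRPA1 against siSNRPB 231. The counts below are over these, and an exon that is never skipped is by construction absent from them.

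In siSNRPA1, 35 of the 310 tested exons fell and 11 rose. These shares of 11.3% and 3.55% lie near the background of 12.8% and 4.18% of all 6459 tested exons. The median fall was 0.23 in level and the median rise 0.17, and the median difference over the 310 exons was -0.01, against -0.02 over all tested exons. In siSNRPB, 14 of 212 fell and 10 rose, or 6.6% and 4.72%, where 16.7% and 4.62% of all 4244 tested exons did. The share that fell was therefore below the background and the share that rose close to it. The median fall was 0.305, over only these 14 called exons, against 0.22 over all called falls. The tested exons had fewer informative reads, with medians of 49.5 in siSNRPB and 86.5 in siCtrl, against 75 and 125 over all. The part of read depth in the larger median fall was not tested. Between the knockdowns, 18 of 231 exons were lower in siSNRPA1 than in siSNRPB (7.79%, background 6.38%) and 14 were higher (6.06%, background 8.28%). The comparisons share pools and are not independent.

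**Figure D1:**
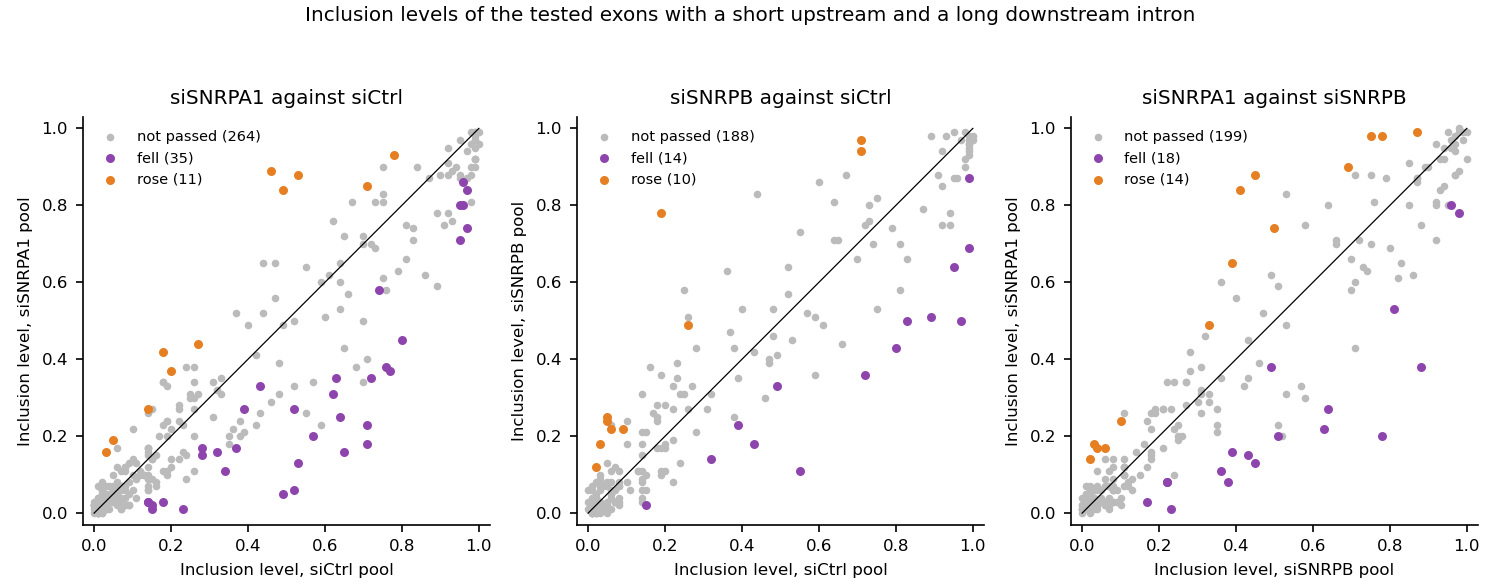
Inclusion level (fraction) of each tested exon with a short upstream and a long downstream intron, with the pool named first on the vertical axis and the other pool on the horizontal axis. Each point is 1 exon, purple where it fell and orange where it rose, the line marks equal levels, and the panels hold 35, 14 and 18 falls and 11, 10 and 14 rises.

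The largest siSNRPA1 falls among exons that both pools covered with 50 informative reads or more are given first, and larger falls on fewer reads, such as that of IFT88, are given further on. SNX7 encodes a sorting nexin, a protein of endosomal membranes. Its exon of 120 nt, partly coding, had a level of 0.13 in siSNRPA1, 0.45 in siSNRPB and 0.53 in siCtrl. Inclusion and exclusion reads numbered 30 and 20 in siSNRPA1, 40 and 1 in siSNRPB, and 68 and 2 in siCtrl. The siSNRPA1 pool alone was low, by 0.40 against siCtrl (exact adjusted p = 5.25e-06), and the authors' intervals of 0.09 to 0.18 and 0.41 to 0.67 did not overlap. ZBTB25, a zinc finger transcription factor gene, had its 5′ UTR exon of 227 nt at 0.35 in siSNRPA1, 0.52 in siSNRPB and 0.63 in siCtrl, and it fell by 0.28 in siSNRPA1 (exact adjusted p = 0.022). The siSNRPB level rests on 12 informative reads and was not tested. ZNF322, another zinc finger gene, had a 5′ UTR exon of 89 nt at 0.71 in siSNRPA1, 0.92 in siSNRPB and 0.95 in siCtrl, with 14 exclusion reads in siSNRPA1 and none in either other pool (siSNRPA1 against siCtrl, exact adjusted p = 0.00639).

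TENT2 encodes a cytoplasmic poly(A) polymerase. Its coding exon of 129 nt, the tenth of its transcript, keeps the reading frame and has an upstream intron of 368 nt and a downstream intron of 7767 nt. The level was 0.74 in siSNRPA1, 0.50 in siSNRPB and 0.97 in siCtrl. There were 63 inclusion and 5 exclusion reads in siSNRPA1, 24 and 9 in siSNRPB, and 110 and 0 in siCtrl. Both knockdown pools were thus below siCtrl, by 0.23 in siSNRPA1 (exact adjusted p = 0.0283) and by 0.47 in siSNRPB (exact adjusted p = 1.31e-05). The direct difference of 0.24 between siSNRPA1 and siSNRPB also passed (exact adjusted p = 0.0455). As a share of informative reads inclusion was 92.6% (95% Wilson interval 83.9 to 96.8) in siSNRPA1 and 100% in siCtrl, a gap under 0.1, so the siSNRPA1 fall is lost where the read share replaces the level.

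RPAP3 belongs to a chaperone complex that helps assemble RNA polymerase II, and its coding exon of 102 nt had levels of 0.17 in siSNRPA1, 0.17 in siSNRPB and 0.37 in siCtrl. Reads were 41 and 17 for inclusion and exclusion in siSNRPA1, 17 and 0 in siSNRPB, and 56 and 6 in siCtrl. The exon fell in siSNRPA1 (exact adjusted p = 0.035), and siSNRPB had too few reads for a test. As a share of informative reads inclusion was 70.7% in siSNRPA1, 100% in siSNRPB and 90.3% in siCtrl. The equal levels of the 2 knockdowns therefore do not match their reads. RBM34, an RNA-binding protein gene, had an exon of 137 nt at 0.58 in siSNRPA1, 0.70 in siSNRPB and 0.74 in siCtrl. Its fall in siSNRPA1 (exact adjusted p = 0.0302) rests on 8 exclusion reads among 278 informative reads, against 0 of 249 in siCtrl, which allows a share of up to 1.2%. The siSNRPB pool had 7 exclusion reads of 166, and these reads also differed from siCtrl (exact adjusted p = 0.00673). Its level differed by only 0.04, short of the 0.1 required. BUD23 encodes a methyltransferase of 18S ribosomal RNA, and its exon of 97 nt, behind an intron of 98 nt, had levels of 0.80 in siSNRPA1, 0.96 in siSNRPB and 0.96 in siCtrl (siSNRPA1 against siCtrl, exact adjusted p = 0.000805). The read shares of BUD23 differed by less than 0.1, as those of RBM34 did.

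ATP6V0A1 encodes subunit a1 of the membrane part of the vacuolar proton pump. Its coding exon of 172 nt lies between introns of 310 and 6566 nt. Levels were 0.80 in siSNRPA1, 0.64 in siSNRPB and 0.95 in siCtrl, with 360 inclusion and 53 exclusion reads, 98 and 25, and 241 and 5 in the same order. The fall was 0.15 in siSNRPA1 (exact adjusted p = 8.73e-06) and 0.31 in siSNRPB (exact adjusted p = 1.93e-07), and the 0.16 between the knockdowns did not pass on reads (exact adjusted p = 0.116). SPTLC1, a subunit of serine palmitoyltransferase, which begins sphingolipid synthesis, had an exon of 133 nt in a noncoding transcript at 0.03 in siSNRPA1, 0.17 in siSNRPB and 0.18 in siCtrl. Reads were 11 and 123 in siSNRPA1, 22 and 19 in siSNRPB, and 48 and 62 in siCtrl. The exon was thus lowest in siSNRPA1, with the other pools close to each other in level (exact adjusted p = 6.44e-09 against siCtrl and 1.62e-07 against siSNRPB). As a share of informative reads inclusion was 8.21% in siSNRPA1, 53.7% in siSNRPB and 43.6% in siCtrl, well above the levels.

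CBWD5, one of several near-identical COBW domain genes, had a partly coding exon of 88 nt at 0.27 in siSNRPA1, 0.64 in siSNRPB and 0.52 in siCtrl. It fell against siCtrl (exact adjusted p = 0.000639) and was lower than in siSNRPB by 0.37 (exact adjusted p = 5.27e-05). The exon's copies in CBWD2, CBWD3, CBWD5 and CBWD6 differ by 0 bases and that in CBWD1 by 1, so reads can be split between copies and these values are uncertain. CBWD3 and CBWD5 list the same 55, 12 and 28 exclusion reads in siSNRPA1, siSNRPB and siCtrl. Against siCtrl the 88 nt exons of CBWD1, CBWD3 and CBWD6 did not pass in siSNRPA1 (exact adjusted p = 0.234, 0.236 and 0.564), nor did that of CBWD2. A different exon, of 123 nt, fell in CBWD3 and CBWD6, so CBWD genes hold 3 of the 46 exons called in siSNRPA1. Between the knockdowns they hold 4 of 32, the 88 nt exons of CBWD1, CBWD3, CBWD5 and CBWD6. Without the CBWD exons and without exons with an overlapping gene on the opposite strand, 30 exons fell and 9 rose in siSNRPA1. These were 10.6% and 3.19% of 282 tested, with a background of 12.8% and 4.18%.

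**Figure D2:**
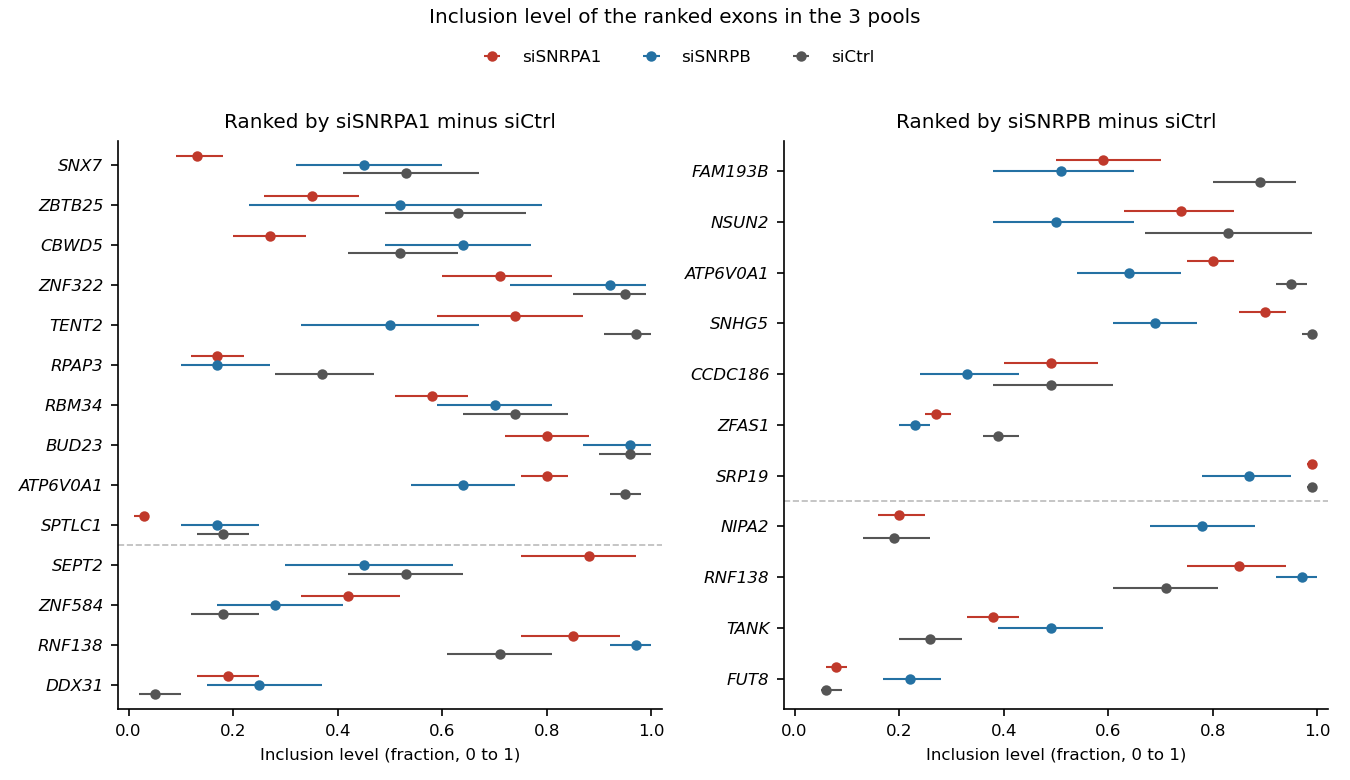
Inclusion level (fraction, horizontal axis) of the exons with the largest differences between siSNRPA1 and siCtrl (left) and between siSNRPB and siCtrl (right), falls above the dashed line and rises below it. Points are the authors' levels in the 3 pools and bars the authors' intervals, whose width is not stated. SNX7 and SPTLC1 are low in siSNRPA1 alone, NIPA2 and FUT8 high in siSNRPB alone, and ATP6V0A1, TENT2 and ZFAS1 lower in both knockdowns than in siCtrl.

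Rises in siSNRPA1 were fewer. SEPT2 encodes a septin, a filament-forming GTPase. Its 5′ UTR exon of 119 nt had levels of 0.88 in siSNRPA1, 0.45 in siSNRPB and 0.53 in siCtrl, from 130 inclusion and 2 exclusion reads, 28 and 6, and 78 and 16. The rise of 0.35 passed against siCtrl (exact adjusted p = 0.000319), and the exon was higher than in siSNRPB by 0.43 (exact adjusted p = 0.00688). A form of 134 nt shares these reads, and HDLBP lies on the other strand, so SEPT2 is uncertain. ZNF584, a zinc finger gene, had its coding exon of 127 nt at 0.42 in siSNRPA1, 0.28 in siSNRPB and 0.18 in siCtrl (siSNRPA1 against siCtrl, exact adjusted p = 0.00445). A longer form also rose and has the same 33, 17 and 40 exclusion reads in siSNRPA1, siSNRPB and siCtrl, so it is not a separate observation. RNF138, an E3 ubiquitin ligase gene, had an exon of 187 nt at 0.85 in siSNRPA1, 0.97 in siSNRPB and 0.71 in siCtrl, with exclusion reads of 4, 0 and 12 beside 222, 174 and 146 inclusion reads. It rose in siSNRPA1 (exact adjusted p = 0.0291) and in siSNRPB (exact adjusted p = 0.000805). DDX31, a DEAD-box helicase gene, had an exon of 104 nt that is not an annotated exon of GENCODE 29, at 0.19 in siSNRPA1, 0.25 in siSNRPB and 0.05 in siCtrl. It rose by 0.14 in siSNRPA1 (exact adjusted p = 0.0015) and by 0.20 in siSNRPB (exact adjusted p = 0.00251).

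In siSNRPB, 7 falls had at least 50 informative reads in both pools. The largest of these was FAM193B, whose coding exon of 240 nt had levels of 0.59 in siSNRPA1, 0.51 in siSNRPB and 0.89 in siCtrl. Exclusion reads numbered only 6, 6 and 3 beside 122, 50 and 134 inclusion reads, so the call in siSNRPB is marginal (exact adjusted p = 0.0498) and the siSNRPA1 difference did not pass (exact adjusted p = 0.467). NSUN2 encodes an RNA cytosine methyltransferase, and its coding exon of 105 nt, the third of its transcript and in frame, had levels of 0.74 in siSNRPA1, 0.50 in siSNRPB and 0.83 in siCtrl. Exclusion reads numbered 8, 7 and 0 beside 158, 49 and 84 inclusion reads (siSNRPB against siCtrl, exact adjusted p = 0.00598). CCDC186 encodes a coiled-coil protein, and its 5′ UTR exon of 125 nt stood at 0.49 in siSNRPA1, 0.33 in siSNRPB and 0.49 in siCtrl. It fell in siSNRPB by 0.16 (exact adjusted p = 0.0423).

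SNHG5 and ZFAS1 are noncoding host genes of small nucleolar RNAs. The SNHG5 exon of 99 nt had levels of 0.90 in siSNRPA1, 0.69 in siSNRPB and 0.99 in siCtrl. Its reads were 320 for inclusion and 19 for exclusion in siSNRPA1, 107 and 27 in siSNRPB, and 294 and 0 in siCtrl. It fell in siSNRPB by 0.30 (exact adjusted p = 4.45e-13), and the 0.09 in siSNRPA1 was short of the 0.1 required although the reads differed (exact adjusted p = 0.000109). The ZFAS1 exon of 62 nt stood at 0.27 in siSNRPA1, 0.23 in siSNRPB and 0.39 in siCtrl. Inclusion reads made up 38.4% of 893 in siSNRPA1, 30.8% of 561 in siSNRPB and 51.3% of 690 in siCtrl, and both falls passed (exact adjusted p = 8.57e-06 in siSNRPA1 and 3.39e-11 in siSNRPB). SRP19 encodes a protein of the signal recognition particle. Its exon of 112 nt, with 26870 nt of intron after it, was at 0.99 in siSNRPA1, 0.87 in siSNRPB and 0.99 in siCtrl, with 6 exclusion reads in siSNRPB and none in the 367 and 323 informative reads of the other pools (siSNRPB against siCtrl, exact adjusted p = 0.00162).

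The largest change of either direction in siSNRPB was a rise. NIPA2 encodes a magnesium transporter. Its exon of 113 nt, in a noncoding transcript, lies between introns of 140 and 12464 nt. The level was 0.20 in siSNRPA1, 0.78 in siSNRPB and 0.19 in siCtrl, from 67 inclusion and 71 exclusion reads, 96 and 11, and 31 and 26. Only the siSNRPB pool was high, by 0.59 against siCtrl (exact adjusted p = 1.48e-05), and siSNRPA1 was below siSNRPB by 0.58 (exact adjusted p = 6.09e-10). TANK, an adaptor of innate immune signalling, had a partly coding exon of 128 nt at 0.38 in siSNRPA1, 0.49 in siSNRPB and 0.26 in siCtrl. It rose in siSNRPB (exact adjusted p = 0.000312), and the 0.12 in siSNRPA1 did not pass (exact adjusted p = 0.0571). FUT8 encodes the fucosyltransferase of N-glycan cores, and its exon of 102 nt stood at 0.08 in siSNRPA1, 0.22 in siSNRPB and 0.06 in siCtrl, with inclusion reads at 15.6% of 494, 37.3% of 158 and 13.5% of 259. The rise in siSNRPB passed (exact adjusted p = 8.55e-07).

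Between the knockdowns, and among called exons covered by 50 informative reads or more in each, those of NIPA2, CBWD5, FRMD5, IKZF5 and BUD23 had the largest differences below siSNRPB. FRMD5, a FERM domain gene, had an exon of 303 nt at 0.15 in siSNRPA1 and 0.43 in siSNRPB (exact adjusted p = 1.39e-06), with 0.28 in siCtrl between them. Against siCtrl it fell in siSNRPA1 (exact adjusted p = 0.0038), and the difference of 0.15 in siSNRPB did not pass (exact adjusted p = 0.109). IKZF5, an Ikaros family zinc finger gene, had an exon of 108 nt at 0.78 in siSNRPA1, 0.98 in siSNRPB and 0.89 in siCtrl, and the 0.20 between the knockdowns passed (exact adjusted p = 0.000257) while neither difference from siCtrl did. The siSNRPB reads differed from siCtrl (exact adjusted p = 0.00751), but the 0.09 in level was short of the 0.1 required. By the same read limit, the exons of SMC1A, SNHG5, CCDC186, RIN2 and SRP19 had the largest differences above it. Among called exons with fewer reads, RABGAP1L, at -0.50, and SEPT2, at 0.43, differed most in each direction. SMC1A encodes a subunit of cohesin, and its exon of 146 nt had levels of 0.65 in siSNRPA1, 0.39 in siSNRPB and 0.47 in siCtrl (siSNRPA1 against siSNRPB, exact adjusted p = 0.0178). RIN2, a guanine nucleotide exchange factor for RAB5, had an exon of 169 nt at 0.24 in siSNRPA1, 0.10 in siSNRPB and 0.19 in siCtrl (exact adjusted p = 0.00378 between the knockdowns).

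**Figure D3:**
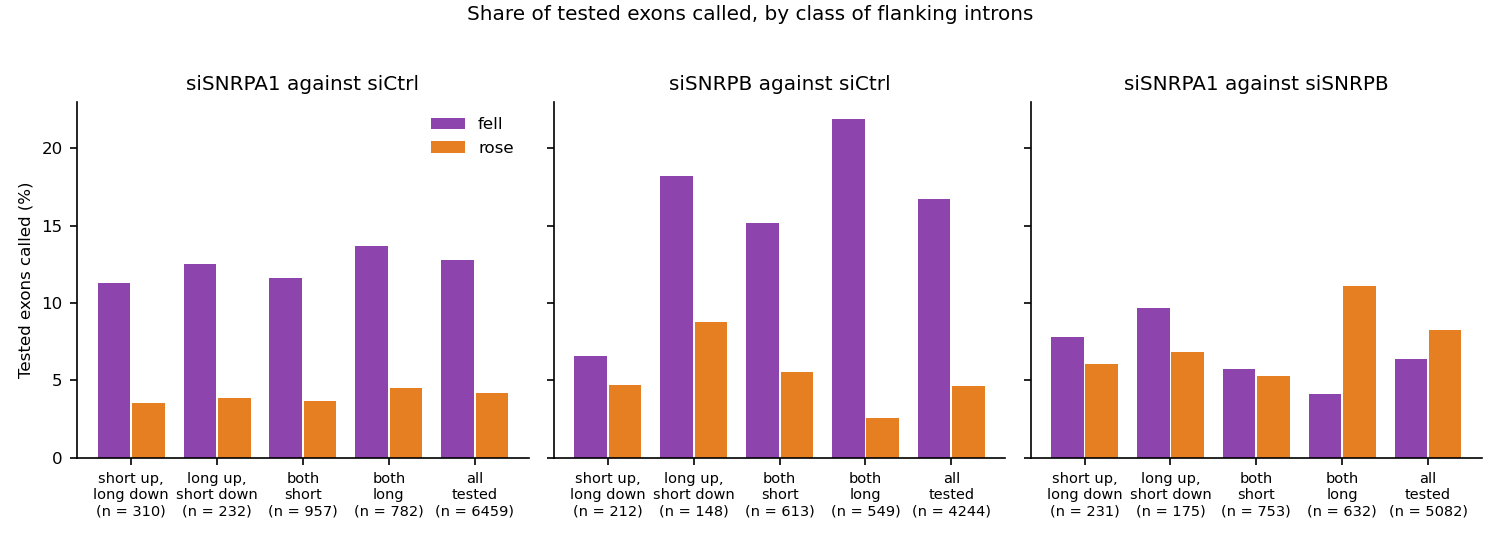
Percent of tested exons that fell (purple) or rose (orange) in each comparison, for exons over 60 and under 500 nt grouped by their flanking introns (short, at most 1000 nt; long, at least 5000 nt) and for all tested exons; n is the number tested. In siSNRPB against siCtrl, falls made up 6.6% of exons with a short upstream and a long downstream intron and 15.2% to 21.9% in the other groups.

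The intron classes were set side by side as a description. In siSNRPA1 against siCtrl, falls made up 11.3% of exons with a short upstream and long downstream intron, 12.5% with the reverse arrangement, 11.6% with short introns on both sides and 13.7% with long introns on both. In siSNRPB against siCtrl the same shares were 6.6%, 18.2%, 15.2% and 21.9%. Rises in siSNRPB were 4.72%, 8.78%, 5.55% and 2.55%. Between the knockdowns, the exons with long introns on both sides were higher in siSNRPA1 in 11.1% and lower in 4.11%, while those with a short upstream and long downstream intron were higher in 6.06% and lower in 7.79%.

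Several measures moved with the low share of falls in siSNRPB. The tested exons had fewer informative reads, with medians of 49.5 in siSNRPB and 86.5 in siCtrl, against 75 and 125 over all tested exons, and a lower median siCtrl level of 0.185 against 0.34. Within the 35 exons at 0.8 or more in siCtrl 7 fell (20%), against 29.6% of all exons at that level. Of the 66 between 0.2 and 0.8, 6 fell (9.09%), against 22.4%, and of the 111 under 0.2, 1 fell (0.901%), against 3.72%. With reads thinned to the smallest pool the share was 6.98%, with a background of 15.2%, and with at least 50 informative reads 7%, with a background of 16%. With the share of inclusion reads in place of the authors' level, however, 31 exons fell (14.6%), with a background of 18%, which is a smaller gap. The part of read depth and of the starting level in the low share was not tested beyond these values.

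**Figure D4:**
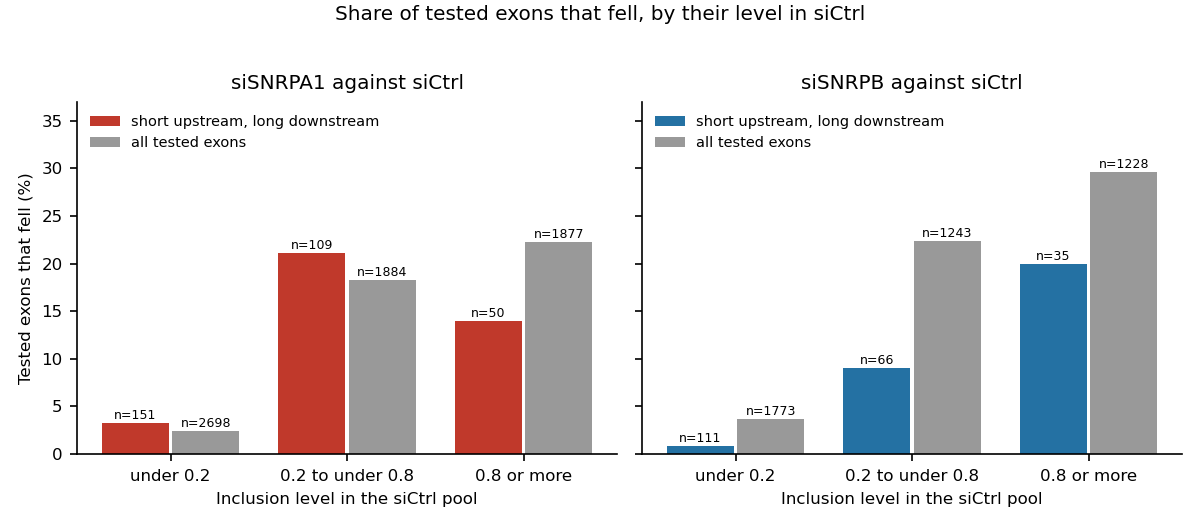
Percent of tested exons that fell, by their inclusion level in the siCtrl pool, for exons with a short upstream and a long downstream intron (coloured) and all tested exons (grey); n is the number tested. In siSNRPA1 the coloured bar is above the grey one at levels of 0.2 to under 0.8 (21.1% against 18.3%) and below it at 0.8 or more (14% against 22.3%), and in siSNRPB it is below at each level.

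By place in the gene, falls in siSNRPA1 made up 10.8% of 83 coding exons, against 16.5% of all coding exons tested, and 14.9% of 74 exons in 5′ UTRs, against 12.1%. In siSNRPB they made up 9.09% of 55 coding exons, against 21.2%, 11.1% of 54 exons in 5′ UTRs, against 13.4%, and 0 of 58 partly coding exons, against 11%. None of the 125 tested exons whose length is a multiple of 3 rose in siSNRPA1, and 11 of the 185 others did, where both shares were 4.18% over all tested exons. The 11 lie in 9 genes, since SEPT2 and ZNF584 each count with 2 overlapping forms that share reads. In siSNRPB 1 of 91 rose among multiples of 3 and 9 of 121 among the others, against 5.14% and 4.18% of all. These splits hold few exons and were not tested.

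The introns varied widely within the limits. In siSNRPA1, falls made up 20.9% of the 43 exons behind an intron of at most 200 nt, against 16.3% of all tested exons behind such an intron. They made up 9.09% of 121 behind more than 200 and up to 500 nt, against 10.3% of all, and 10.3% of 146 behind more than 500 nt. In siSNRPB the 30 exons behind an intron of at most 200 nt had 1 fall (3.33%) and 4 rises (13.3%), NIPA2 among the rises, against 16.6% and 4.95% of all such exons. With a downstream intron of 5000 to under 10000 nt, 13.3% of 180 exons fell in siSNRPA1 and 7.81% of 128 in siSNRPB. With 10000 to under 20000 nt it was 7.69% of 78 and 1.89% of 53, against 12.9% and 15.3% of all tested exons with such an intron. With 20000 nt or more it was 9.62% of 52 and 9.68% of 31, against 15.5% and 21.2% of all. The members' share showed no steady course with length. Exons of under 40% GC fell in 20.6% of 34 cases in siSNRPA1 and in 25% of 20 cases in siSNRPB, against 15.4% and 18.3% of all such exons. At 40 to under 55% GC it was 11.4% of 175 and 3.33% of 120, against 14% and 17.4%. At 55% or more it was 6.82% of 88 and 7.46% of 67, against 9.85% and 14.4%.

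**Figure D5:**
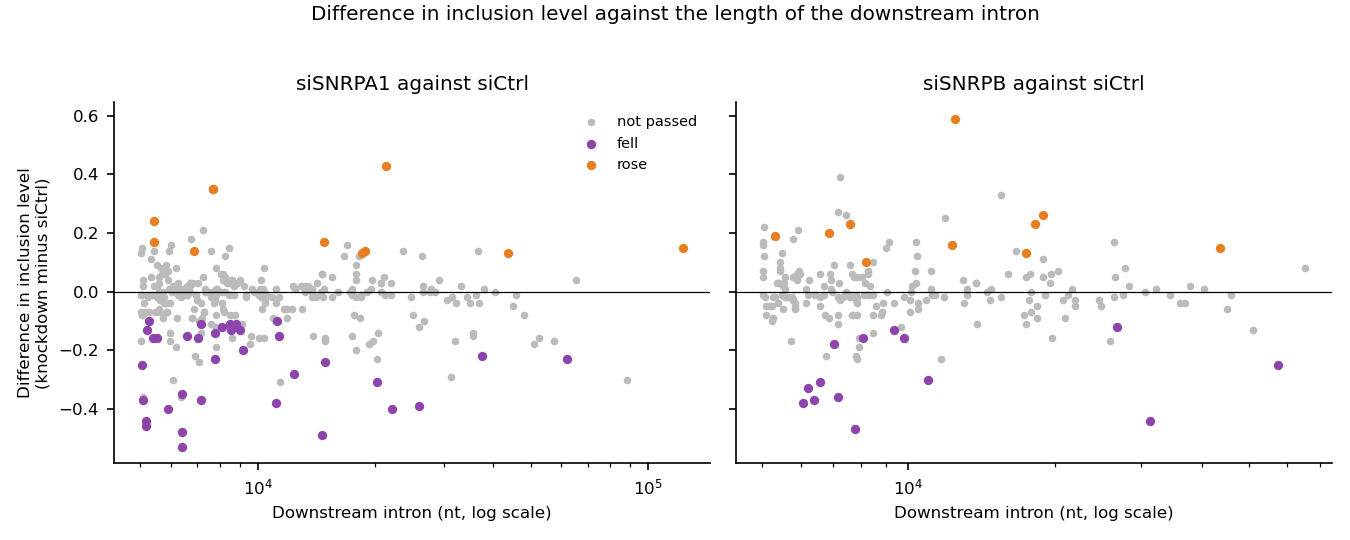
Difference in inclusion level (knockdown minus siCtrl) of each tested exon against the length of its downstream intron in nt on a log axis, for siSNRPA1 (left) and siSNRPB (right), with falls in purple and rises in orange. Falls and rises are spread over the range of lengths, and the highest point is NIPA2 in siSNRPB, at 0.59.

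Exons at the edges of the rule gave these values, with no test. With an upstream intron over 900 and up to 1000 nt, just inside, 1 of 12 fell in siSNRPA1 and 2 of 8 in siSNRPB, and with over 1000 and up to 1100 nt, just outside, 3 of 24 and 2 of 16 did. With a downstream intron of 5000 to 5500 nt, just inside, 8 of 34 fell in siSNRPA1 and 0 of 25 in siSNRPB, and with 4500 to under 5000 nt, just outside, 6 of 28 and 6 of 18 did. The siSNRPB share therefore differed across the downstream limit by more than it did across the upstream one, on small counts. These counts are not all separate observations. The 8 falls include exons of CBWD3, CBWD5 and CBWD6, near-identical genes. The 25 tested in siSNRPB include the 88 nt exons of CBWD1, CBWD3, CBWD5 and CBWD6, which can share reads. The 6 siSNRPB falls just outside lie in 4 genes.

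The host genes were described with 12 function lists, read beside the backgrounds above. Of 9 tested exons in genes of splicing and RNA processing, RBM34 fell and DDX31 rose in siSNRPA1, and in siSNRPB TRA2A fell and DDX31 and LSM2 rose. LSM2 belongs to the ring of proteins on U6 snRNA, and its coding exon of 68 nt stood at 0.85 in siSNRPA1, 0.94 in siSNRPB and 0.71 in siCtrl (siSNRPB against siCtrl, exact adjusted p = 0.00686). TRA2A, a splicing regulator, is outside the rule for named exons and was added after its values were seen. Its 5′ UTR exon of 90 nt had levels of 0.14 in siSNRPA1, 0.02 in siSNRPB and 0.15 in siCtrl, with no inclusion read among 21 in siSNRPB (exact adjusted p = 0.00688 against siCtrl).

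Of 7 tested cell cycle exons in siSNRPA1 and 6 in siSNRPB, that of SMC6, a subunit of the SMC5/6 complex, fell in each. It stood at 0.16 in siSNRPA1, 0.14 in siSNRPB and 0.32 in siCtrl (exact adjusted p = 0.0011 and 0.0437 against siCtrl). In the ubiquitin list, 2 of 19 tested exons fell in siSNRPA1 and 1 rose, and in siSNRPB 1 of 12 fell and 1 rose. KLHL24 encodes a substrate adaptor of a ubiquitin ligase. Its 5′ UTR exon of 91 nt had levels of 0.35 in siSNRPA1, 0.36 in siSNRPB and 0.72 in siCtrl (exact adjusted p = 0.00704 and 0.0016 against siCtrl), so both knockdowns were low and close to each other. USP28, a deubiquitinase gene, had an exon of 363 nt at 0.31 in siSNRPA1, 0.61 in siSNRPB and 0.62 in siCtrl (siSNRPA1 against siCtrl, exact adjusted p = 0.0278). Its siSNRPB level rests on 11 informative reads and was not tested.

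Of 11 tested exons in vesicle trafficking and autophagy genes, 2 fell and 1 rose in siSNRPA1. ATG13, part of the complex that starts autophagy, fell beside SNX7, with a 5′ UTR exon of 116 nt at 0.25 in siSNRPA1, 0.61 in siSNRPB and 0.64 in siCtrl (exact adjusted p = 0.0231 for siSNRPA1). Neither the ATG13 exon, with 10 informative reads in siSNRPB, nor the SNX7 exon was tested there against siCtrl. None of the 5 tested in siSNRPB passed. In the list of small GTPases and their regulators, RABGAP1L fell in siSNRPA1 (0.38 in siSNRPA1, 0.88 in siSNRPB, 0.76 in siCtrl, exact adjusted p = 0.00306) and ARHGEF28 in siSNRPB (0.26, 0.18 and 0.43, exact adjusted p = 0.0379). Of 19 tested exons in zinc finger and other transcription factor genes, 3 fell and 3 rose in siSNRPA1, with 2 of the rises from overlapping forms of the ZNF584 exon and ZNF160 among the falls (0.20, 0.52 and 0.57, exact adjusted p = 0.0416), and none of 14 passed in siSNRPB. Among membrane transporters, ATP6V0A1 fell in siSNRPA1, 1 of 10 tested, and in siSNRPB ATP6V0A1 fell and NIPA2 rose, of 5 tested.

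In the cytoskeleton and adhesion list the 2 forms of the SEPT2 exon rose among 7 tested in siSNRPA1, and none of 5 passed in siSNRPB. The single fall in the chromatin list in siSNRPA1, of 5 tested, was NSDHL, which is a sterol synthesis enzyme and matched the list by its spelling. Its 5′ UTR exon of 67 nt had levels of 0.16 in siSNRPA1, 0.09 in siSNRPB and 0.65 in siCtrl (exact adjusted p = 0.00177), and the siSNRPB value rests on 6 informative reads. None of the 14 tested exons in signalling genes or the 14 in mitochondrial and metabolic genes passed in siSNRPA1, nor did any of the 11 and 11 in siSNRPB. The DNA repair list had 1 tested exon in siSNRPA1, which did not pass, and none in siSNRPB.

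Other falls were chosen after their values were seen. The largest fall of level in siSNRPA1 was in IFT88, a gene of transport in cilia, where 3 overlapping forms of 1 exon share a downstream intron of 6382 nt. The form of 104 nt had a level of 0.18 in siSNRPA1, 0.18 in siSNRPB and 0.71 in siCtrl (siSNRPA1 against siCtrl, exact adjusted p = 0.00109), and the form of 328 nt had 0.45, 0.43 and 0.80 and fell in both knockdowns (exact adjusted p = 0.015 in siSNRPA1 and 0.0106 in siSNRPB). The siSNRPB level of the 104 nt form rests on 12 informative reads and was not tested. The forms share the same 17, 10 and 8 exclusion reads and are not separate observations. PEAK1, a pseudokinase gene, had an exon of 148 nt at 0.26 in siSNRPA1, 0.11 in siSNRPB and 0.55 in siCtrl, and it fell in siSNRPB (exact adjusted p = 0.000723) with 23 informative reads there. The largest called rise in siSNRPA1 was in ARMC8, at 0.89 in siSNRPA1, 0.74 in siSNRPB and 0.46 in siCtrl (exact adjusted p = 0.00264), on 24 informative reads in siSNRPA1 and 21 in siCtrl. Its siSNRPB level rests on 7 informative reads and was not tested.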

How the data were processed

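Libraries of MDA-LM2 total RNA were made with a stranded low-input kit, per the labels' protocols, and the submitters' processing notes name STAR 2.7 and hg38 without a role. Per the file headers, the authors deposited for each group a MISO table of skipped-exon events, with the inclusion level as a fraction (rounded to 2 decimals), an interval of unstated width, and read counts per class. The authors also deposited, for each knockdown with siCtrl, a score, the difference in level, and a ratio of evidence, the Bayes factor. The sources used here do not give the strand setting of counting, or how a group's libraries were pooled. The labels do not say whether numbered libraries are separate cultures, list 1 SNRPB library, and the design text names SNRPB2 in 1 place.

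Intron lengths came from the coordinates in the event names, in transcript order. Of 47986 events, the one with most informative reads was kept per middle exon (40658 exons), and the rule on lengths was then applied. Genes and places came from GENCODE 29, whose exons matched 95.6% of them in both ends. Reads are not known to be independent molecules, so tests, 95% Wilson intervals and the limit a count of 0 allows (3 counts) cover counting error only. Forms of 1 exon with different ends were kept apart. Exons with an overlapping gene on the opposite strand are uncertain: 5 of 46, 0 of 24 and 4 of 32 called exons in siSNRPA1, siSNRPB and between them. These counts leave out overlaps on the same strand. Such a gene overlaps the named exons of RBM34 (ARID4B), RNF138 (AC011825.3), SRP19 (AC008575.1) and ATP6V0A1 (MIR5010). The test was also run on simulated independent reads with the level set equal to the read share. That run could not check the part of the rule that uses the authors' level. Python 3.11.15, numpy 2.4.6, scipy 1.17.1 and pandas 2.3.3 were used.

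Named exons are, among called exons with 50 informative reads or more in each pool and 1 per gene, the 10 largest falls and 6 largest rises of each knockdown (fewer where fewer passed), the 5 largest each way between knockdowns, and up to 2 called exons per function list. Sequences were printed for 10 ranked exons that lie outside UTRs, without BUD23, ZFAS1 and SRP19, and the split by length, place and intron was a description. The exons, lists and rules were chosen with earlier results of these data known, and no pattern is independent support.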

Additional observations from a re-analysis of the deposited data

How the results depend on the processing

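Counts are given in the order fell and rose in siSNRPA1, fell and rose in siSNRPB, and lower and higher in siSNRPA1 than in siSNRPB, where the main counts were 35, 11, 14, 10, 18 and 14. With at least 10 informative reads the siSNRPB falls became 25 (8.8% of 284 tested, background 16.9%), and with at least 50 the counts were 18, 6, 7, 4, 7 and 5. The shares that fell and rose were then 9.63% and 3.21% of 187 in siSNRPA1 (background 12.6% and 3.45%). In siSNRPB they were 7% and 4% of 100 (background 16% and 3.83%). With a difference of at least 0.2 the counts were 20, 4, 9, 5, 13 and 7. The shares were 6.45% and 1.29% of 310 in siSNRPA1 (background 6.81% and 1.76%). In siSNRPB they were 4.25% and 2.36% of 212 (background 9.57% and 2.5%). With the share of inclusion reads as the measure the counts were 42, 18, 31, 18, 23 and 22. In siSNRPA1 13.5% fell and 5.81% rose of 310 (background 13% and 6.22%). In siSNRPB 14.6% fell and 8.49% rose of 212 (background 18% and 6.15%). With read counts divided by 2 the counts were 6, 2, 3, 3, 5 and 1. In siSNRPA1 3.24% fell and 1.08% rose of 185 (background 5.66% and 1.22%). In siSNRPB 2.86% fell and 2.86% rose of 105 (background 9.85% and 1.76%). After thinning each pool's reads to the smallest total the counts were 14, 4, 12, 6, 12 and 8. In siSNRPA1 7.45% fell and 2.13% rose of 188 (background 8.47% and 2.18%). In siSNRPB 6.98% fell and 3.49% rose of 172 (background 15.2% and 3.73%). With 1 exon per gene the counts were 11, 2, 3, 1, 6 and 4, since fewer of these exons remain. In siSNRPA1 10.5% fell and 1.9% rose of 105 (background 14.2% and 3.85%). In siSNRPB 3.8% fell and 1.27% rose of 79 (background 18.1% and 4.29%). With an upstream intron of at most 500 nt the counts were 20, 4, 7, 6, 7 and 8. In siSNRPA1 12.2% fell and 2.44% rose of 164 (background 12.8% and 4.18%). In siSNRPB 5.88% fell and 5.04% rose of 119 (background 16.7% and 4.62%). With a downstream intron of at least 10000 nt the counts were 11, 6, 4, 6, 9 and 3, again with fewer exons. In siSNRPA1 8.46% fell and 4.62% rose of 130. In siSNRPB 4.76% fell and 7.14% rose of 84, with the same backgrounds. In the last setting falls did not outnumber rises in siSNRPB. Applying the length rule before keeping 1 event per exon, the authors' Bayes factor of at least 10 (not given between the knockdowns), and leaving out other-strand overlaps and CBWD copies, added after the data were seen, moved no count by more than 1.5 times. The median difference stayed within 0.01 of its main value except between the knockdowns with a downstream intron of at least 10000 nt, where it was -0.02. No named exon could change direction in these settings, so the lack of a reversal carries no information. The authors' level was not recomputed after thinning or division by 2, and a call already required level and reads to agree in direction. The siSNRPA1 calls of RNF138, RBM34, BUD23 and TENT2 and the siSNRPB calls of FAM193B, RNF138 and SRP19 were lost with the share of inclusion reads, as were those of BUD23 and SRP19 between the knockdowns. The siSNRPB calls of NSUN2, CCDC186, SMC6 and ARHGEF28 were lost with the Bayes factor, as were the siSNRPA1 calls of RNF138, RBM34, BUD23 and SMC6. After thinning, the siSNRPA1 calls of ZBTB25, RPAP3, USP28 and RNF138, the siSNRPB calls of FAM193B, CCDC186 and ARHGEF28, and those of SMC1A and CCDC186 between the knockdowns were lost. With counts divided by 2, ARHGEF28 was not tested and the others of these were lost. Also lost were the siSNRPA1 calls of ZNF322, BUD23, ZNF584, DDX31, SMC6 and RABGAP1L and the siSNRPB calls of DDX31, KLHL24 and RNF138. Between the knockdowns those of BUD23, IKZF5 and RIN2 were lost. Division by 2 also left TENT2, RBM34, NSDHL, ATG13, KLHL24 and ZNF160 untested in siSNRPA1. The same held for NSUN2, SRP19, LSM2 and SMC6 in siSNRPB, and for SRP19 between the knockdowns. Thinning left SNX7, TENT2, RBM34, NSDHL, RABGAP1L, ATG13, KLHL24 and ZNF160 untested in siSNRPA1. An untested call was neither kept nor lost. FAM193B was also lost with at least 10 informative reads. No paired analysis was possible because each group has 1 deposited pool, and no library was left out for that reason. Depth limited the tests most in siSNRPB, with 212 exons tested.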
